A study of Caenorhabditis elegans with 9 samples.

Results

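The 10 cell cycle genes of Caenorhabditis elegans described here were followed through RNA from sorted oocyte P-bodies, dissected whole oocytes and whole animals. They were the B-type cyclin genes cyb-1, cyb-2.1, cyb-2.2 and cyb-3, their kinase gene cdk-1, the cyclin E gene cye-1 with cdk-2, the phosphatase genes cdc-25.1 and cdc-25.2, and the inhibitory kinase gene wee-1.3. They were taken by gene name from a table of 46778 genes, and all 10 were among the 10162 genes that passed the filter on low counts. Each group had 3 libraries, all from females on day 3 of the strain labelled fog2 with car1:GFP and pgl1:RFP, with the stage given as L4 and as oocyte arrest. Every group thus carried the fog2 mutation and both fluorescent fusions, and the fog2 females make no sperm of their own. P-bodies came from a sort named FAPS in the labels, oocytes were obtained by dissection, and whole animals were neither dissected nor sorted. Nothing in the labels says that replicates came from separate cultures, so p-values measure the spread between these libraries, which may be technical.

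Entry into M phase is driven by CDK-1 bound to a B-type cyclin. WEE-1.3, a kinase of the Myt1 type, holds CDK-1 inactive by phosphorylation, and CDC25 phosphatases remove that phosphate. In C. elegans loss of WEE-1.3 makes oocytes mature too early, and the arrested oocyte stores mRNAs whose translation is held back. Cyclin E with CDK-2 acts at entry into S phase and in the germline, where the RNA-binding protein GLD-1 represses cye-1 mRNA. CAR-1 is an RNA-binding protein of P-bodies, granules of the cytoplasm in which proteins and mRNAs gather.

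The libraries held 27946955 to 78685226 counts, and the lowest count of a member was 93, for cdk-2 in a whole-animal library. Ribosomal RNA took 29.8 to 38.04% of counts in P-bodies, 86.8 to 88.8% in dissected oocytes and 91.4 to 91.7% in whole animals. Levels are therefore given as CPM (counts over the size of the library) scaled by TMM factors. Such factors aim to set the typical gene to no change, and each fold change is also given on library totals alone. On library totals the median gene stood 2.44 higher in P-bodies than in oocytes on the log2 scale, 0.68 higher in oocytes than in whole animals and 3.00 higher in P-bodies than in whole animals. The listed oocyte marker genes took 2.40 to 2.48% of protein-coding counts in P-bodies, 2.03 to 2.21% in dissected oocytes and 1.57 to 1.66% in whole animals. The 8 intestine markers took 0.1985 to 0.368% in P-bodies, 0.365 to 1.31% in dissected oocytes and 7.63 to 8.90% in whole animals. Of 8 sperm markers 6 were at 0 in every oocyte library. The 6 markers of gonadal sheath and spermatheca took at most 0.000369% in P-bodies, with sth-1 at 0 in every one, and 0.00656 to 0.0131% in oocytes. Fewer cells of a type and less RNA per cell cannot be told apart in such bulk samples.

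Among the B-type cyclins and their kinase, cyb-3 and cyb-1 were higher in P-bodies than in oocytes relative to the typical gene, cyb-2.1 and cyb-2.2 did not pass the test, and cdk-1 was lower. cyb-3, which encodes the cyclin B3 needed for chromosome segregation in C. elegans, lies on chromosome V at 15395696 to 15397348 (WBcel235, plus strand). It had 350, 316 and 336 TMM-scaled CPM in P-body libraries 1 to 3, against 139, 136 and 134 in oocyte libraries 1 to 3. The P-body libraries all lay far above the oocyte libraries. The log2 fold change was 1.29 ± 0.10 (SE), or 2.45-fold (edgeR quasi-likelihood test, adjusted p = 2.22e-07), and 3.80 on library totals.

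cyb-1, which encodes another B-type cyclin, lies on chromosome IV at 10735259 to 10737177 (plus strand). It had 98.9, 114 and 97.3 TMM-scaled CPM in P-bodies, against 69.0, 65.5 and 61.8 in oocytes. The ranges did not overlap, and the step was smaller than that of cyb-3. It rose 1.58-fold, with a log2 fold change of 0.66 ± 0.10 (edgeR, adjusted p = 8.33e-05), and 3.18 on library totals.

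cyb-2.1 (chromosome IV, 10985985 to 10987426, plus strand) and cyb-2.2 (chromosome I, 4114734 to 4116370, plus strand) encode closely related cyclins B, and each is uncertain alone because reads can be split between such copies. cyb-2.1 had 19.6, 14.5 and 19.9 TMM-scaled CPM in P-bodies, against 13.6, 14.7 and 19.6 in oocytes. cyb-2.2 had 38.3, 30.3 and 37.0 in P-bodies, against 34.7, 25.8 and 37.1 in oocytes. For both genes the groups overlapped, and in P-bodies the second library was the lowest. Both missed the test as reported but were called higher without the filter on low counts. The log2 fold changes were 0.16 ± 0.16 for cyb-2.1 (edgeR, adjusted p = 0.406) and 0.11 ± 0.14 for cyb-2.2 (adjusted p = 0.511), with 2.66 for cyb-2.1 and 2.63 for cyb-2.2 on library totals. Summed over both genes, a value added after the data were seen, the level was 53.2 ± 7.29 TMM-scaled CPM in P-bodies and 48.5 ± 8.10 in oocytes (SD, n = 3 each; two-sided exact permutation test, p = 0.5).

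cdk-1, the kinase that these cyclins activate, lies on chromosome III at 9747432 to 9748852 (plus strand). It had 33.2, 26.0 and 31.7 TMM-scaled CPM in P-bodies, against 37.6, 38.7 and 41.1 in oocytes. All P-body libraries lay below all oocyte libraries, the second of them by the most. It was 1.29-fold lower in P-bodies, with a log2 fold change of -0.37 ± 0.11 (edgeR, adjusted p = 0.0118), but 2.13 on library totals, so that cdk-1 also took a larger share of all reads in P-bodies. The call was lost without P-body library 2, at -0.26 (adjusted p = 0.0595), and without oocyte library 2, at -0.27 (adjusted p = 0.0794). It was also lost in limma on log2 TPM, at -0.35 with a pseudocount of 1 (adjusted p = 0.0567) or 0.1 (adjusted p = 0.0583).

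**Figure D1:**
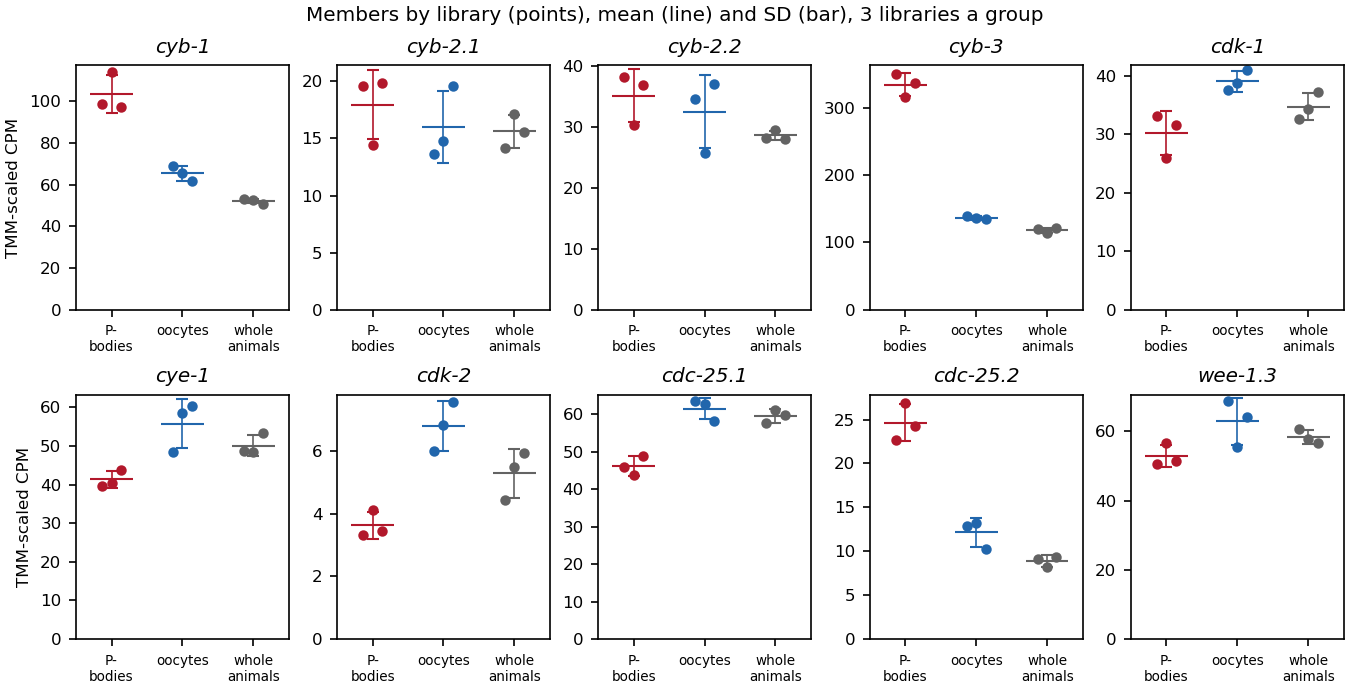
Level of each gene in each library. The vertical axes give TMM-scaled CPM from 0, points are libraries, lines are group means and bars are SD (n = 3 per group). The 3 P-body libraries of cyb-3 sit between 316 and 350, against 134 to 139 in oocytes, while cdk-2 sits between 3.33 and 4.13 in P-bodies, against 6.01 to 7.58 in oocytes.

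cye-1 and cdk-2, the cyclin and kinase of the S phase pair, were both lower in P-bodies than in oocytes relative to the typical gene. cye-1 lies on chromosome I at 6780806 to 6784396 (plus strand) and had 39.8, 40.5 and 43.8 TMM-scaled CPM in P-bodies, against 48.5, 58.6 and 60.3 in oocytes. The P-body libraries lay close together below the oocyte libraries, of which the first was the lowest. The log2 fold change was -0.43 ± 0.10 (edgeR, adjusted p = 0.00353), and 2.07 on library totals.

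cdk-2 (chromosome I, 3410012 to 3415238, plus strand) had 3.33, 4.13 and 3.44 TMM-scaled CPM in P-bodies, against 6.01, 6.82 and 7.58 in oocytes. It was the scarcest of the 10 on this scale, and its groups stood well apart. The log2 fold change was -0.91 ± 0.18, or 1.88-fold lower (edgeR, adjusted p = 0.00074), the lowest of the 10, and 1.60 on library totals. The annotation places an antisense RNA, anr-45, and a non-coding RNA, K03E5.9, over this gene, and whether reads were counted by strand is not stated in the sources used here. Their own counts reached at most 3.597% of those of cdk-2 in any library. Its longest annotated 3′ UTR, at 1298 bases, was the longest of the 10, and that of cdk-1, at 184 bases, the shortest. The annotation ends cdk-2 at 3416368, beyond the end at 3415238 in the authors' table. Part of the 3′ UTR of cdk-2 may therefore lie outside the gene as the authors counted it.

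The genes of the CDC25 phosphatases went apart. cdc-25.2, whose phosphatase C. elegans oocytes need for maturation, was higher in P-bodies, while cdc-25.1, which is known for germline proliferation, was lower relative to the typical gene. cdc-25.2 lies on chromosome V at 1567076 to 1585532 (plus strand) and had 22.7, 26.9 and 24.3 TMM-scaled CPM in P-bodies, against 12.9, 13.2 and 10.3 in oocytes. The groups did not overlap, with the third oocyte library the lowest. cdc-25.2 rose 2.04-fold, with a log2 fold change of 1.03 ± 0.13 (edgeR, adjusted p = 1.58e-05), and 3.54 on library totals.

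cdc-25.1 (chromosome I, 6469386 to 6471995, minus strand) had 45.9, 43.8 and 48.9 TMM-scaled CPM in P-bodies, against 63.4, 62.7 and 58.3 in oocytes. Its groups did not overlap. The log2 fold change was -0.41 ± 0.09 (edgeR, adjusted p = 0.00183), and 2.099 on library totals. The value is uncertain because the protein-coding gene K06A5.2 overlaps it on the opposite strand, although K06A5.2 itself held at most 0.414% as many counts as cdc-25.1 in any library.

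wee-1.3, the gene of the inhibitory kinase, lies on chromosome II at 9713737 to 9716467 (minus strand). It had 50.7, 56.5 and 51.6 TMM-scaled CPM in P-bodies, against 68.9, 55.6 and 64.3 in oocytes. The second library of each group broke the order, so the groups overlapped. Its log2 fold change of -0.25 ± 0.10 missed the threshold (edgeR, adjusted p = 0.0539), and 2.27 on library totals. It was called lower by DESeq2, at -0.26 (adjusted p = 0.0199), with protein-coding totals, at -0.33 (adjusted p = 0.0177), and with the stricter filter, at -0.36 (adjusted p = 0.00873), so that 5 of the 10 genes were lower under each of these settings.

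Of the 10 genes, then, 3 were called higher and 4 lower in P-bodies than in oocytes, where 26.7% of all tested genes were called higher and 28.8% lower. The median log2 fold change of the 10 was -0.07, against -0.06 for all tested genes. The list therefore lay close to the background in its count and its median, and its members spread from -0.91 for cdk-2 to 1.29 for cyb-3. Of all tested genes 27.4% lay below cdk-2, 38.9% below cye-1, 39.4% below cdc-25.1 and 40.7% below cdk-1. Of the genes called higher, 70.9% of all tested genes lay below cyb-1, 81.0% below cdc-25.2 and 86.8% below cyb-3. On library totals all 10 were called higher, where 8093 of the 10162 tested genes were, with a median of 2.45 against 2.44 for all tested genes. Without the filter on low counts the calls of cdk-1, at -0.14 (edgeR, adjusted p = 0.447), cye-1, at -0.21 (adjusted p = 0.191), and cdc-25.1, at -0.19 (adjusted p = 0.243), were lost. In the same fit cyb-2.1, at 0.39 (adjusted p = 0.0214), and cyb-2.2, at 0.34 (adjusted p = 0.0232), were called higher. The calls of cyb-1, cyb-3 and cdc-25.2 were made under every alternative run, and that of cdk-2 under every one but library totals. Of 8 markers of the mitotic and early meiotic germline 7 were higher and 1 lower in P-bodies than in oocytes in the same test, and the list took 0.348 to 0.360% of protein-coding counts in P-bodies, against 0.189 to 0.1945% in oocytes. Of 8 intestine markers 6 were lower, as were 7 of 8 of body wall muscle (0.00928 to 0.0114% in P-bodies, against 0.0484 to 0.138% in oocytes). Of the 6 markers of gonadal sheath and spermatheca 4 were tested, and all 4 were lower. Of 12 oocyte markers 7 were higher and 3 lower. Of 5 tested hypodermis markers 1 was higher and 3 lower, and of 6 tested neuron markers 0 were called. The part of these cell types in the values of the 10 genes was not tested.

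**Figure D2:**
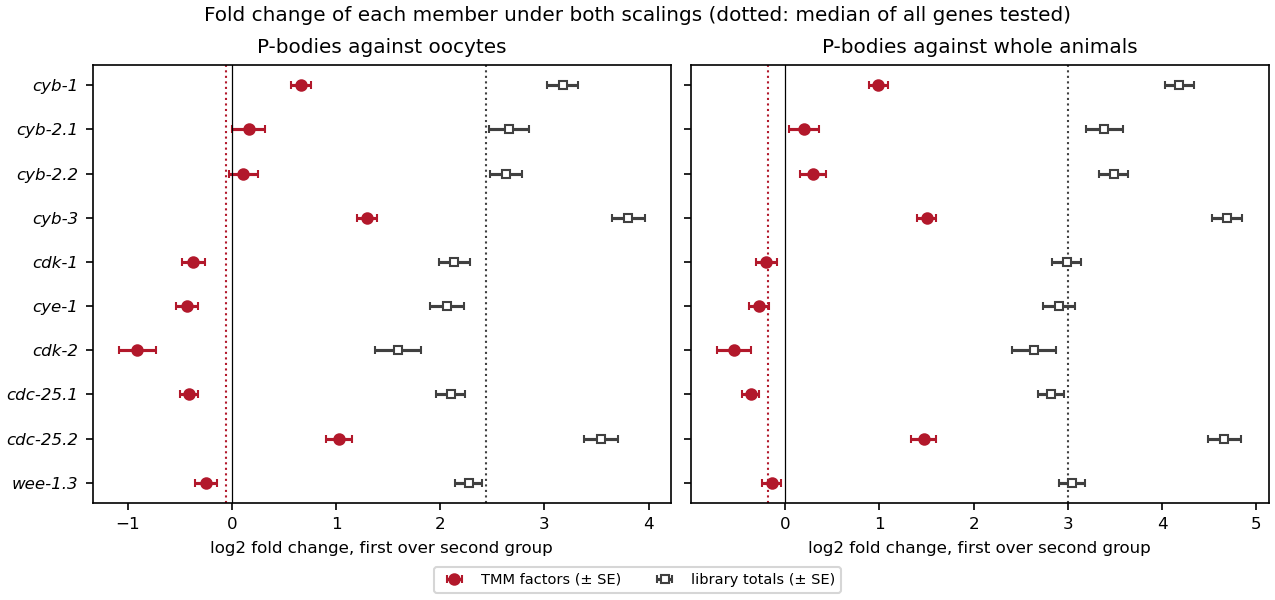
Log2 fold change of each gene in P-bodies over oocytes (left) and over whole animals (right). Filled circles use TMM factors and open squares library totals, bars are SE, and dotted lines mark the median of all tested genes (-0.06 and 2.44 on the left, -0.18 and 3.00 on the right). cyb-3, cdc-25.2 and cyb-1 stand farthest to the right of the median in both panels and under both scalings. cyb-2.1 and cyb-2.2 also stand to the right of it in each case, by less.

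The ratio of 2 genes within a library does not depend on the scaling between libraries, so 12 pairs of the 10 genes were compared in this way. In P-bodies against oocytes 8 of 12 pairs had no overlap between the groups, each with p = 0.1 in a two-sided exact permutation test, the smallest that 3 against 3 libraries can give, or 0.15 adjusted over the 12 pairs. None could therefore pass a threshold of 0.05. Several pairs share a gene, and the share of pairs without overlap over all tested genes was not computed. The count of 8 is therefore a description and not a trait of the 10 genes. The B-type cyclins cyb-3 and cyb-1 stood higher against their kinase: the log2 ratio of cyb-3 to cdk-1 counts was 3.47 ± 0.11 in P-bodies and 1.80 ± 0.09 in oocytes (SD, n = 3 each), a 3.18-fold difference. That of cyb-1 to cdk-1 was 1.78 ± 0.31 in P-bodies and 0.74 ± 0.14 in oocytes, a 2.05-fold difference. Between the cyclins, cyb-3 to cyb-1 was 1.69 ± 0.20 in P-bodies and 1.06 ± 0.05 in oocytes.

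The activating phosphatase gene cdc-25.2 also stood higher against the inhibitory kinase gene. The log2 ratio of cdc-25.2 to wee-1.3 was -1.104 ± 0.05 in P-bodies and -2.38 ± 0.29 in oocytes, a 2.41-fold difference, with no overlap. That of cdc-25.2 to cdc-25.1 was -0.91 ± 0.18 in P-bodies and -2.35 ± 0.14 in oocytes, a 2.71-fold difference, again with no overlap. For cye-1 to cdk-2 the ratio was 3.51 ± 0.20 in P-bodies and 3.03 ± 0.06 in oocytes, and for cdk-2 to cdk-1 it was -3.06 ± 0.35 in P-bodies and -2.53 ± 0.10 in oocytes. The eighth pair was cyb-2.2 to cyb-1, at -1.56 ± 0.31 in P-bodies and -1.02 ± 0.31 in oocytes.

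The other 4 pairs overlapped between P-bodies and oocytes. wee-1.3 to cdk-1, the kinase and its target, was 0.81 ± 0.27 in P-bodies and 0.68 ± 0.18 in oocytes (two-sided exact permutation test, p = 0.6, n = 3 each). cdc-25.1 to wee-1.3 was -0.20 ± 0.15 in P-bodies and -0.03 ± 0.18 in oocytes (exact permutation p = 0.4). cyb-2.2 to cyb-2.1 was 0.98 ± 0.08 in P-bodies and 1.03 ± 0.28 in oocytes (exact permutation p = 0.9), and cyb-2.1 to cyb-1 was -2.54 ± 0.38 in P-bodies and -2.05 ± 0.35 in oocytes (exact permutation p = 0.3).

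**Figure D3:**
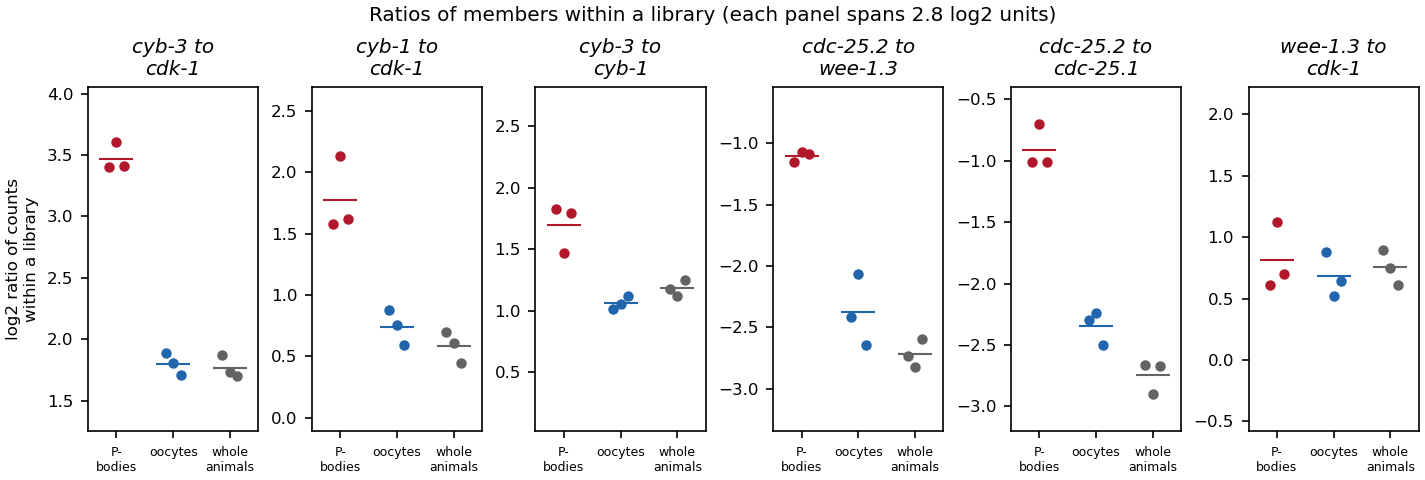
Log2 ratio of the counts of 2 genes within each library, for 6 of the 12 pairs. Points are libraries, lines are group means (n = 3 per group), and every panel spans the same number of log2 units. The 5 panels from the left have no overlap between P-bodies and oocytes, and in the panel of wee-1.3 to cdk-1, with means of 0.81 in P-bodies, against 0.68 in oocytes and 0.75 in whole animals, the groups overlap.

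Levels between genes were compared with the authors' TPM values, which account for length. TPM are shares of all RNA in the table, ribosomal RNA included, so the order within a group is given rather than the change between groups. cyb-3 was the most abundant of the 10 in every group, at 1697 ± 24.3 TPM in P-bodies, against 139 ± 30.1 in oocytes and 78.0 ± 5.12 in whole animals (SD, n = 3 each). cyb-1 came second, at 500.0 ± 78.8 TPM in P-bodies, against 60.5 ± 12.7 in oocytes and 32.4 ± 2.47 in whole animals, and in each group the ranges of these 2 genes did not overlap.

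Below them the order differed between groups. In P-bodies cyb-2.2 (195 ± 17.9 TPM), cdk-1 (185 ± 17.0), wee-1.3 (164 ± 16.0), cdc-25.1 (151 ± 7.68) and cye-1 (147 ± 10.6) followed, each neighbour overlapping the next. Within every P-body library, though, cyb-2.2 lay above cdk-1. Then came cyb-2.1 (105 ± 15.03 TPM) and cdc-25.2 (98.5 ± 5.16), which overlapped, and cdk-2 was the lowest at 23.7 ± 2.93 TPM, apart from the rest. In oocytes cdk-1 (49.0 ± 11.3 TPM), cdc-25.1 (40.9 ± 8.90), cye-1 (40.7 ± 11.98), wee-1.3 (38.8 ± 4.22) and cyb-2.2 (35.7 ± 5.18) overlapped from neighbour to neighbour, and the range of cdk-1 also overlapped that of cyb-1. Within every oocyte library, though, cyb-1 lay above cdk-1 and cdk-1 above cdc-25.1. The order of cdc-25.1, cye-1, wee-1.3 and cyb-2.2 varied between oocyte libraries. cyb-2.1 stood apart below them at 18.8 ± 5.36 TPM, and at the foot cdk-2 (9.01 ± 2.55) and cdc-25.2 (8.497 ± 2.38) did not differ beyond their spread.

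Whole animals had nearly the same order as oocytes. cdk-1 (27.8 ± 1.62 TPM) stood below cyb-1, then cdc-25.1 (25.23 ± 0.299), wee-1.3 (23.5 ± 1.88) and cye-1 (23.2 ± 1.39) overlapped from neighbour to neighbour, and cyb-2.2 (20.5 ± 0.816) and cyb-2.1 (11.8 ± 0.551) stood apart in turn. cdk-2 (4.51 ± 0.545 TPM) and cdc-25.2 (4.22 ± 0.728) again overlapped as the lowest pair. Thus cdc-25.2 shared the last place with cdk-2 in oocytes and whole animals, and in P-bodies it lay above cdk-2 in every library.

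The make-up of the B-type cyclin mRNA followed from these levels and is free of the scaling between libraries. Of the summed TPM of the 4 genes, cyb-3 held 69.6, 66.3 and 68.0% in P-bodies, against 54.4, 56.7 and 52.9% in oocytes and 55.0, 53.7 and 55.2% in whole animals. The P-body libraries were all above both other groups, and oocytes and whole animals overlapped. cyb-1 held 20.0% ± 2.95 in P-bodies, against 23.8% ± 1.22 in oocytes and 22.7% ± 0.505 in whole animals (SD, n = 3 each). cyb-2.2 held 7.80% ± 0.773 in P-bodies, against 14.2% ± 2.31 in oocytes and 14.4% ± 0.504 in whole animals, and cyb-2.1 held 4.19% ± 0.619 in P-bodies, against 7.34% ± 1.34 in oocytes and 8.33% ± 0.804 in whole animals. Both shares were lower in every P-body library than in any other library.

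**Figure D4:**
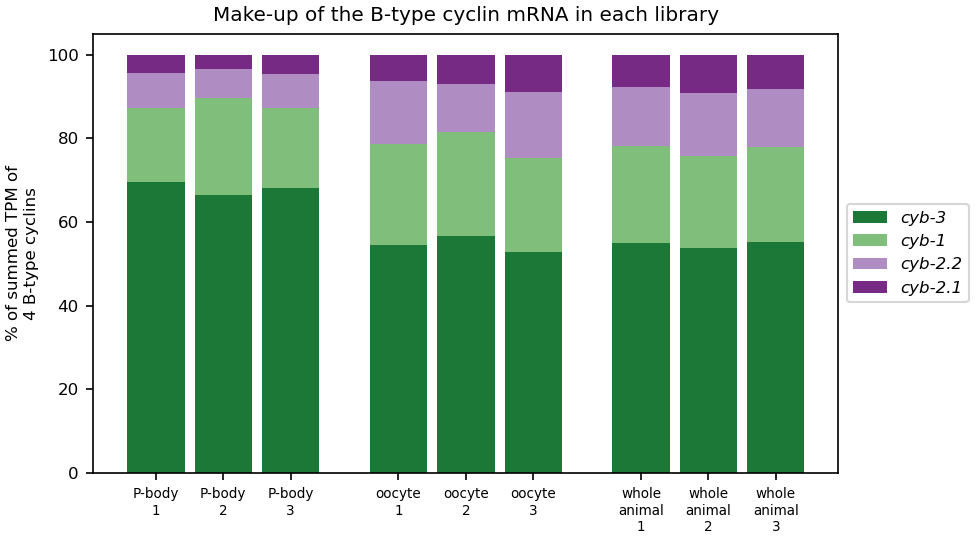
Share of each gene in the summed TPM of cyb-1, cyb-2.1, cyb-2.2 and cyb-3, in percent, with 1 bar per library. cyb-3 fills 66.3 to 69.6% of the bars of P-bodies, 52.9 to 56.7% of those of oocytes and 53.7 to 55.2% of those of whole animals.

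Between oocytes and whole animals 2 of the 10 genes were called, cyb-1 and cdc-25.2, both higher in oocytes, where 0.709% of all tested genes were called higher and 12.5% lower. cyb-1 had 69.0, 65.5 and 61.8 TMM-scaled CPM in oocytes, against 52.9, 52.5 and 50.8 in whole animals. cdc-25.2 had 12.9, 13.2 and 10.3 in oocytes, against 9.09, 8.17 and 9.39 in whole animals. Neither gene overlapped between the groups, but the steps were small beside those between P-bodies and oocytes. Their log2 fold changes were 0.33 ± 0.10 for cyb-1 (edgeR, adjusted p = 0.0438) and 0.44 ± 0.13 for cdc-25.2 (adjusted p = 0.0424), with 1.01 for cyb-1 and 1.11 for cdc-25.2 on library totals.

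Both calls were lost without oocyte library 1, at 0.29 for cyb-1 (edgeR, adjusted p = 0.108) and 0.40 for cdc-25.2 (adjusted p = 0.0954). They were also lost without any one of the whole-animal libraries, at 0.31 to 0.34 for cyb-1 (adjusted p = 0.103 to 0.148) and 0.39 to 0.49 for cdc-25.2 (adjusted p = 0.0802 to 0.148), and that of cdc-25.2 without oocyte library 2, at 0.38 (adjusted p = 0.0950). The other 8 genes had log2 fold changes between 0.04 for cyb-2.1 and 0.36 for cdk-2 and did not pass the test. Of these, cyb-3, at 0.21 (edgeR, adjusted p = 0.193), was called higher by DESeq2, at 0.27 (adjusted p = 0.0012). It was also called with protein-coding totals, at 0.32 (edgeR, adjusted p = 0.0284). The median of the 10 was 0.18, against 0.00 for all tested genes. On library totals all 10 were called higher, where 5278 of the 10162 tested genes were, and the median was 0.85 against 0.68. All 8 intestine markers were lower in oocytes than in whole animals in the same test, and their part in these values was not tested.

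P-bodies and whole animals were compared with the same P-body libraries, so these values are not independent of those against oocytes. On TMM-scaled values cyb-3, cdc-25.2 and cyb-1 were called higher in P-bodies, and cdk-2, cdc-25.1 and cye-1 lower. These were 3 calls in each direction, where 27.9% of all tested genes were called higher and 38.9% lower. The median log2 fold change of all tested genes was itself -0.18, so the lower calls lay near the middle of all genes. Of all tested genes 41.6% lay below cdk-2, 45.3% below cdc-25.1 and 47.3% below cye-1. cyb-3 had 350, 316 and 336 TMM-scaled CPM in P-bodies, against 119.3, 114 and 121 in whole animals. cdc-25.2 had 22.7, 26.9 and 24.3 in P-bodies, against 9.09, 8.17 and 9.39 in whole animals. Both genes stood far apart between the groups, more so than between P-bodies and oocytes. The log2 fold changes were 1.5 ± 0.10 for cyb-3 (edgeR, adjusted p = 5.75e-08), 1.47 ± 0.13 for cdc-25.2 (adjusted p = 6.92e-07) and 0.99 ± 0.10 for cyb-1 (adjusted p = 2.14e-06). On library totals they were 4.69 for cyb-3, 4.66 for cdc-25.2 and 4.18 for cyb-1.

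The genes lower in P-bodies than in whole animals moved less. cdc-25.1 had 45.9, 43.8 and 48.9 TMM-scaled CPM in P-bodies, against 57.6, 61.2 and 59.8 in whole animals, a log2 fold change of -0.37 ± 0.09 (edgeR, adjusted p = 0.00303) and 2.82 on library totals. cdk-2 had 3.33, 4.13 and 3.44 in P-bodies, against 4.43, 5.50 and 5.94 in whole animals, at -0.54 ± 0.18 (adjusted p = 0.0160) and 2.64 on library totals. cye-1 had 39.8, 40.5 and 43.8 in P-bodies, against 48.6, 48.5 and 53.3 in whole animals, at -0.28 ± 0.10 (adjusted p = 0.0318) and 2.91 on library totals. None of the 3 overlapped between the groups. The call of cye-1 was lost without P-body library 1 or 2 or any whole-animal library (-0.22 to -0.28, adjusted p = 0.0647 to 0.147), and that of cdk-2 without P-body library 1 or 3 or whole-animal library 2 or 3 (-0.43 to -0.50, adjusted p = 0.0565 to 0.0871). With the libraries of these 2 groups alone no gene of the 10 was called lower.

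The other 4 genes did not pass the test in P-bodies against whole animals. Their log2 fold changes were 0.20 for cyb-2.1 (edgeR, adjusted p = 0.278), 0.30 for cyb-2.2 (adjusted p = 0.0703), -0.20 for cdk-1 (adjusted p = 0.129) and -0.14 for wee-1.3 (adjusted p = 0.233). cyb-2.2 was called higher, at 0.40 (adjusted p = 0.0251), without P-body library 2, and by DESeq2, at 0.35 (adjusted p = 0.0320). Without the low-count filter edgeR called both cyb-2.1, at 0.46 (adjusted p = 0.0037), and cyb-2.2, at 0.56 (adjusted p = 3.69e-05), higher. With the libraries of these 2 groups alone they were called at 0.45 (adjusted p = 0.0109) and 0.54 (adjusted p = 0.000484). The stricter filter called cdk-1, at -0.34 (adjusted p = 0.0137), and wee-1.3, at -0.29 (adjusted p = 0.0251), lower. Within libraries, the log2 ratio of cyb-3 to cdk-1 was 3.47 ± 0.11 in P-bodies and 1.77 ± 0.09 in whole animals, and that of cdc-25.2 to wee-1.3 was -1.104 ± 0.05 in P-bodies and -2.72 ± 0.11 in whole animals (SD, n = 3 each; exact permutation p = 0.1 each, 0.171 adjusted over 12 pairs). Neither ratio overlapped between the groups.

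Of the 9622 protein-coding genes tested, only those with a class symbol (letters, a hyphen and a number, as in cyb-1) were searched for similar patterns. These were 5565 besides the gene itself. For each of the 10 genes the 3 nearest were found by the Euclidean distance between their log2 TMM-scaled CPM, centred per gene, over the 9 libraries. They were nfi-1, oma-1 and wapl-1 for cyb-1 and madd-3, dpy-28 and mppa-1 for cyb-3. They were sam-4, rde-8 and dpf-7 for cyb-2.1 and trm-1, gna-2 and his-72 for cyb-2.2. For cdc-25.2 they were rsp-4, trd-1 and sop-2, for cdc-25.1 nuo-4, mus-81 and gsp-1, and for wee-1.3 spd-2, tpxl-1 and arf-3. For cdk-1 they were rbm-22, exos-8 and snpc-4, for cye-1 apc-2, rcq-5 and cki-2, and for cdk-2 zipt-7.1, plst-1 and adm-2. The smallest distance was 0.13, between cye-1 and apc-2, and the nearest genes of cdk-2 were the farthest, at 0.32 to 0.41.

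Among the 10 genes themselves, cyb-3 and cdc-25.2 were each other's nearest, at a distance of 0.53. cdk-1 and cye-1 were each other's nearest at 0.34, and cyb-2.1 and cyb-2.2 at 0.48. Many genes outside the 10 lay nearer than these partners. By distance among the genes searched, cdc-25.2 was at rank 175 for cyb-3, and cyb-3 at rank 90 for cdc-25.2. The ranks were 38 for cye-1 from cdk-1 and 29 for cdk-1 from cye-1. They were 54 for cyb-2.2 from cyb-2.1 and 61 for cyb-2.1 from cyb-2.2. These distances and ranks are descriptions, and the 9 libraries behind them are the same that gave the fold changes.

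Of 40 other cyclin, CDK and CDK regulator genes 38 were tested, and 19 of them were higher and 10 lower in P-bodies than in oocytes, where 26.7% of all tested genes were higher and 28.8% lower. The 10 lower genes were thus near the share over all genes. The median log2 fold change of the 38 was 0.39, against -0.06 for all tested genes. On library totals all 38 were called higher, where 8093 of the 10162 tested genes were, with a median of 2.89 against 2.44. Of 9 other cyclin genes 6 were higher and 1 lower, with a median of 0.98. Of 9 other CDK genes 5 were higher and 2 lower, with a median of 0.43, and of 20 tested regulators 8 were higher and 7 lower, with a median of 0.22. The count of lower genes among the 38 was 5 without oocyte library 2, 6 without oocyte library 3 and 5 without the filter on low counts.

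The largest changes among these genes lay on both sides. cyy-1, a cyclin gene, averaged 61.4 ± 5.06 TMM-scaled CPM in P-bodies and 17.3 ± 0.909 in oocytes (SD, n = 3 each), a log2 fold change of 1.83 ± 0.12 (edgeR, adjusted p = 6.51e-08) and 4.34 on library totals. The third CDC25 phosphatase gene, cdc-25.3, averaged 26.6 ± 2.32 in P-bodies and 8.08 ± 1.41 in oocytes, at 1.72 ± 0.14 (adjusted p = 6.55e-07) and 4.24 on library totals. It thus stood on the side of cdc-25.2 and not of cdc-25.1. The phosphatase gene cdc-14 (1.58 ± 0.10, 4.09 on library totals) and the cyclin T gene cit-1.1 (1.48 ± 0.15, 3.98 on library totals) were also higher. cdc-25.3, cdc-14 and cit-1.1 overlap another protein-coding gene and are uncertain.

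On the other side, plk-1, the gene of the polo-like kinase that acts in oocyte meiosis and mitosis, averaged 32.9 ± 0.704 TMM-scaled CPM in P-bodies and 70.2 ± 9.36 in oocytes. Its log2 fold change was -1.09 ± 0.11 (edgeR, adjusted p = 3.67e-06) and 1.41 on library totals. mnat-1, a subunit gene of the CDK-activating kinase (-1.71 ± 0.13, 0.80 on library totals, uncertain through an overlapping gene), cul-1, a cullin gene (-1.15 ± 0.11, 1.36 on library totals), and cdk-9, the partner kinase of cyclin T (-1.02 ± 0.13, 1.48 on library totals), were also lower relative to the typical gene.

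In oocytes against whole animals none of the 38 genes was called by edgeR as reported, where 0.709% of all tested genes were higher and 12.5% lower. Of the 38 genes 4 had an unadjusted edgeR p under 0.05, and DESeq2 called 2 higher. With protein-coding totals edgeR called 4 higher, and without the filter on low counts 2. On library totals 35 were called higher, where 5278 of the 10162 tested genes were. In P-bodies against whole animals, with the same P-body libraries, 22 were higher and 6 lower, where 27.9% of all tested genes were higher and 38.9% lower. The median was 0.50, against -0.18 for all tested genes. On library totals all 38 were called higher, where 7781 of the 10162 tested genes were. With TMM factors the log2 fold change was 1.99 for cyy-1 (5.18 on library totals), 2.05 for cdc-25.3 (5.23) and 1.75 for cit-1.1 (4.94). It was -1.86 for mnat-1 (1.33 on library totals), -0.98 for cul-1 (2.21), -0.95 for plk-1 (2.24) and -0.98 for cdk-9 (2.21). The cyclin L gene cyl-1 averaged 145 ± 32.8 TMM-scaled CPM in P-bodies and 41.0 ± 3.22 in whole animals, at 1.82 ± 0.19 (edgeR, adjusted p = 8.32e-06) and 5.01 on library totals.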

How the data were processed

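The authors deposited raw counts per gene for 9 libraries, 3 per group, and a StringTie table with TPM values, per the file headers. FPKM and mean coverage in the same deposited table entered no test. Per the labels, RNA was extracted with a kit for fixed tissue and sequenced from a stranded total RNA library, and the spin that clears debris was skipped for P-bodies, so this step and the sort cannot be told apart. Reads were aligned with HISAT2 2.1.0 to WBcel235, per the submitters' processing notes, which also name StringTie, HTSeq and DESeq2 without a role. Whether counting used strand, and how it treated reads shared between genes, is not given in the sources used here.

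Counts were tested with edgeR 4.0.16 (quasi-likelihood, robust, R 4.3.3), TMM factors, edgeR's default filter (minimum count 10, minimum total 15) and 1 model of the 9 libraries by group, with 6 residual degrees of freedom. Calls needed an adjusted p (Benjamini-Hochberg, over 10162 genes) under 0.05. Each log2 fold change puts the group named first on top, and its SE is the log2 fold change divided by the square root of the F statistic. Ratios used counts plus 0.5.

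On counts simulated for the 10162 tested genes, 200 of them changed in P-bodies, 8494 genes passed the filter. Changed genes that the filter removed were left out of the rates. In P-bodies against oocytes the test recovered 15.4% of the remaining changed genes at 1.5-fold, 42.3% at 2-fold and 76.4% at 4-fold. The test called 0.0481% of the unchanged genes that passed. Of changed genes with at least 10 CPM, a level that cdk-2 did not reach, it recovered 36% at 1.5-fold and 100% at 2-fold and 4-fold. The simulated mean levels came from all 9 libraries. In the real comparison 2715 genes were called higher and 2925 lower, a far larger share than was changed in the simulation. The simulated rates therefore need not hold there.

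The genes, lists and tests were chosen with earlier results of these data known. Pathway genes were named by rule, the 4 with the largest log2 change in each direction among called genes with at least 10 CPM on average in the higher group. Alternatives were other scalings, DESeq2 1.42.0, limma 3.58.1 on log2 TPM with a pseudocount of 1 or 0.1, other filters (none, or at least 50 counts in 3 libraries), fits on the compared groups alone, a replicate block and leaving out each library. A planned search for motifs in 3′ UTRs was not run, since no sequence was used here.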

Additional observations from a re-analysis of the deposited data

How the results depend on the processing

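Among refits of the fold changes of the 10 genes, 366 kept direction and call, 41 lost the call, 27 gained one and 16 changed direction, and the cause was not tested. cyb-1, cyb-3 and cdc-25.2 in P-bodies against either other group were called higher in every refit.

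On library totals P-bodies against oocytes had 8093 genes higher and 340 lower, and 10 and 0 of the 10. The values turned to 2.13 for cdk-1, 2.07 for cye-1, 1.60 for cdk-2, 2.099 for cdc-25.1 and 2.27 for wee-1.3, and of the named pathway genes to 0.80 for mnat-1, 1.36 for cul-1, 1.41 for plk-1 and 1.48 for cdk-9. P-bodies against whole animals had 7781 higher and 989 lower, and 10 and 0 of the 10, with 2.99 for cdk-1, 2.91 for cye-1, 2.64 for cdk-2, 2.82 for cdc-25.1 and 3.05 for wee-1.3, and 1.33 for mnat-1, 2.21 for cul-1, 2.24 for plk-1 and 2.21 for cdk-9. Oocytes against whole animals had 5278 genes and all 10 higher.

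Without the low-count filter 5 of the 10 were higher and 1 lower in P-bodies against oocytes, and 5 and 0 against whole animals, where cdk-1 turned to 0.0599 and wee-1.3 to 0.11. With only the libraries of both groups, P-bodies against whole animals had 5 and 0, with cdk-1 at 0.0452 and wee-1.3 at 0.10, and oocytes against whole animals had 47 genes and 1 of the 10 higher. The stricter filter gave 34 genes higher, 723 lower and 0 of the 10 higher in oocytes against whole animals, and 5 lower in P-bodies against whole animals. There, limma on TPM plus 1 or plus 0.1 left 1 lower. The genes higher in oocytes than in whole animals, 72 as reported, numbered 642 with protein-coding totals, 379 with DESeq2, 320 with no filter, 378 with TPM plus 1 and 265 with TPM plus 0.1.

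Leaving out a library gave 23 to 227 genes and 0 to 2 of the 10 higher in oocytes against whole animals, and 1 to 2 of the 10 lower in P-bodies against whole animals. cyb-2.1 in oocytes against whole animals ranged from -0.14 to 0.15. Differences in log2 ratio that changed sign ranged, in P-bodies against oocytes, from -0.16 to 0.11 for cyb-2.2 to cyb-2.1 and from -0.0235 to 0.23 for wee-1.3 to cdk-1. In oocytes against whole animals they ranged from -0.0127 to 0.26 for cyb-2.2 to cyb-2.1, from -0.009 to 0.0856 for cyb-3 to cdk-1, from -0.16 to 0.0016 for cdc-25.1 to wee-1.3 and from -0.17 to 0.0074 for wee-1.3 to cdk-1. In P-bodies against whole animals wee-1.3 to cdk-1 ranged from -0.10 to 0.16.

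Between P-bodies and oocytes, libraries of the same number deviated from their group means together, with correlations of 0.0997 to 0.1368, and each correlated best with its own number (other pairs -0.17 to 0.07). Same-numbered pairs ranged from -0.04 to 0.14 between P-bodies and whole animals and from -0.11 to 0.09 between oocytes and whole animals. No comparison had every pair over 0.1 and the labels state no shared source, so the numbers were not taken to pair the libraries, although the first values are a hint in the data that they may. The replicate block gave 2654 genes higher and 2700 lower in P-bodies against oocytes, with 3 of the 10 higher and 4 lower as without it, and 0 of the 10 higher in oocytes against whole animals, where cyb-1 had 0.33 (adjusted p = 0.0586) and cdc-25.2 0.43 (adjusted p = 0.0643). Depth limits cdk-2 most, with 93 to 172 counts in whole animals.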
